A study of Mus musculus with 8 samples.

Results

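Wnt signaling is held in check by feedback genes that it switches on and by secreted antagonists. The levels of 10 such genes were examined in mouse molars: the intracellular feedback genes Axin2 and Nkd1, the secreted feedback enzyme gene Notum, the secreted antagonist genes Dkk1, Dkk2, Dkk3, Sfrp2, Wif1 and Sostdc1, and Lrp4, which encodes a membrane receptor for Sostdc1. They were chosen by symbol, for their place in the pathway, from the 43629 Ensembl genes with a deposited count. Earlier results of these data were known when the choice was made. All 10 had enough reads to be tested, among 17129 genes that had.

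The study asked how loss of the Notch ligand Jagged1 from the dental epithelium changes gene expression in the molar at the time its crown takes shape. Lower molars were taken at E18.5 from 4 K14Cre;Jagged1fl/fl embryos, labelled Mutant, and from 4 littermates, labelled Control, whose genotype is Jagged1fl/fl without the Cre. The study calls these controls WT, and the name is kept here, while the sample labels give them as Jagged1fl/fl. All 8 embryos carry the floxed Jagged1 alleles. The K14 promoter drives Cre in epithelium, and the whole molar was sequenced, so each library holds epithelial RNA from recombined cells together with mesenchymal RNA from cells outside the reach of Cre. Each sample is 1 embryo, with the molars of both sides pooled. In such bulk samples, fewer cells of a type and less RNA per cell cannot be told apart. The sources give neither sex nor litter for single embryos, and no group was formed by either.

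In the canonical Wnt pathway, secreted Wnt proteins bind Frizzled receptors and the co-receptors Lrp5 and Lrp6, Dishevelled is recruited, the Axin-containing destruction complex is held off, and β-catenin enters the nucleus to act with TCF/LEF factors. Axin2, Nkd1, Notum and Dkk1 are among the genes often induced by this signal and they dampen it at different points. In the tooth, the level of Wnt signaling in the epithelium is known to bear on the number and place of the enamel knots, the signaling centers that set the cusps, and Sostdc1 and Lrp4 are known as genes whose loss alters teeth and cusps.

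Levels are given as CPM, read counts scaled to a common library size by the TMM method, which corrects the library size for genes that take an unusual share of the reads. Between 17327224 and 29792467 reads per embryo fell on genes, and every one of the 10 genes had at least 335 counts in each embryo, so the spread between embryos rather than counting sets the precision here. The deleted gene, Jag1, had 95.2 to 104 CPM in WT and 34.0 to 57.1 CPM in mutant molars, without overlap (log2 fold change -1.19, standard error 0.14, adjusted p = 0.00517 by the quasi-likelihood test of edgeR, adjusted by Benjamini-Hochberg). Markers of dental epithelium such as Krt14 and Krt5 and of dental mesenchyme such as Msx1 and Barx1 were detected in all 8 libraries. Of the 6 dental epithelium markers 1 was called higher (called here means an adjusted p under 0.05), Krt14, with 735 to 974 CPM in WT and 1098 to 2375 CPM in mutants, and none lower, with Epcam at 218 to 255 CPM in WT and 113 to 194 CPM in mutants. Of the dental mesenchyme list, 4 of the 7 markers were called lower and 1 higher, with Barx1 from 64.8 to 72.5 CPM in WT and from 38.8 to 53.0 CPM in mutants. Several libraries stood apart. The enamel score, the mean log2(CPM) of the 5 enamel genes Klk4, Mmp20, Enam, Ambn and Amelx, lay between 4.73 and 6.87 in WT embryos and at 6.94 in K14J28, 8.17 in K14J30, 9.79 in K14J29 and 11.8 in K14J26. Of these enamel genes, 4 of 5 were called higher, with Amelx from 364 to 2407 CPM in WT and from 2465 to 60581 CPM in mutants, and Klk4 from 0.3 to 0.8 and from 0.5 to 17.4 CPM. Skeletal muscle transcripts summed to 408 and 204 CPM in the WT embryos J6 and J7, against 5.81 to 19.2 CPM in the other embryos. The mutant K14J28 held 251 CPM of Krt4 and 397 CPM of Krt13, keratins of oral mucosa, against at most 33.9 and 89.7 CPM elsewhere. Xist, which is expressed in cells with an inactive X chromosome and so marks female mouse tissue, stood at 10.9 and 10.5 on the log2(CPM) scale in K14J28 and K14J29, both mutants, and at most 0.22 in the other embryos. It entered the fits only as a covariate.

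Sequence upstream of these genes is shown for the classic Wnt readout Axin2 and for Nkd1, whose values followed those of Axin2 most closely among the 10 genes, and for the stretches of Dkk1 that hold a TCF/LEF core. The upstream windows rest on RefSeq starts on GRCm38.p6, and the set of windows used here holds Axin2, Nkd1, Dkk1, Dkk2, Sfrp2 and Wif1 of the 10 genes. The 250 bases before each start were searched on both strands for the letters CTTTGA, a TCF/LEF core, and GTGGGAA, a core bound by RBPJ, the transcription factor of Notch signaling. The windows are written 5′ to 3′ on the strand of the gene, in lower case, with any match in capitals.
Axin2, chr11:108920099-108920348, plus strand: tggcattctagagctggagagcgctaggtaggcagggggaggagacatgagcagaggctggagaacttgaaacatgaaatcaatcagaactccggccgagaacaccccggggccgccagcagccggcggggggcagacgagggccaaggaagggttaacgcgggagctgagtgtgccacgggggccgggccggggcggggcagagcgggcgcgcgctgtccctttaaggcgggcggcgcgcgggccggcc
Nkd1, chr8:88527383-88527632, plus strand: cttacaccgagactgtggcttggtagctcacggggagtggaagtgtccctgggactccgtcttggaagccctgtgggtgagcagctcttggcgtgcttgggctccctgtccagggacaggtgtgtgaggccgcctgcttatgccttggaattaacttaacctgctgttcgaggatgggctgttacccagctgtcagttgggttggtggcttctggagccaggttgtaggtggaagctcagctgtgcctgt
Dkk1, chr19:30549596-30549625, minus strand: ctcctcccaaagCTTTGAaatcccatcccg
Dkk1, chr19:30549653-30549682, minus strand: gaggggagagtgTCAAAGtcctccctgctt
Neither the Axin2 nor the Nkd1 window held either core, and they differed in GC content, 69.2% and 58.4%, with 24 and 6 CpG dinucleotides. The Nkd1 window lies inside the gene by the GENCODE annotation, whose first start is further upstream. Dkk1 was the only one of the 6 searched genes with a TCF/LEF core, at 2 places, from 117 to 112 bases before the RefSeq start on the strand of the gene and from 174 to 169 bases before it on the other strand. GENCODE places a start of Dkk1 upstream of the one used by RefSeq, so that 169 of the 250 bases fall in an annotated exon. The printed stretch with the match at 117 to 112 bases lies wholly in annotated exon, as do 13 of the 30 bases of the other stretch. CTTTGA occurs in 13.8% and GTGGGAA in 5.42% of the 32851 promoter windows of the same length, and no RBPJ core was found in the 6 windows. A match describes the letters only, and their absence from these windows says nothing of sites elsewhere.

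Of the 10 genes, Lrp4 alone had an adjusted p under 0.05 between K14Cre;Jagged1fl/fl and WT molars, and it was higher. The share was thus 1 of 10, against 16.1% of all 17129 tested genes called in either direction, 9.52% called higher and 6.61% called lower. None of the 10 was called lower by edgeR's quasi-likelihood test, although Sostdc1 had an unadjusted p under 0.05 and was called lower by DESeq2 and by edgeR's likelihood ratio test. Over all genes DESeq2 called 1618 lower and the likelihood ratio test 1292, against 1133 in the main fit. Dkk1, Wif1 and Lrp4 were the 3 higher genes with an unadjusted p under 0.05. The criteria of the study are a p of 0.05 or less before adjustment and a fold change threshold of 0.5, which was read here on the log2 scale and in either direction because the methods do not name a scale. By this reading Sostdc1 was the single gene to pass, against 14.2% of all tested genes. Over the 10 genes the log2 fold change had a median of -0.08, against 0.01 over all tested genes. WT and mutant values were fully apart for 1 of the 10 genes, Lrp4, against 24.2% of all tested genes. These shares are near or below those of all genes. Which of the 10 genes were called changed with single embryos: without K14J26, Dkk1 and Lrp4 were called higher and Axin2 lower, and without K14J28, Wif1 and Lrp4 were called higher and Sostdc1 lower. Without J3, J5, J6, J7 or K14J29, none of the 10 was called, and Lrp4 had an unadjusted p under 0.05 in each of these fits. The calls over all tested genes moved with the same embryos, from 1631 higher and 1133 lower with all 8 to 250 and 170 without K14J29, 300 and 236 without J7, 373 and 287 without J3, 451 and 388 without J5 and 853 and 553 without J6, and up to 1746 and 1349 without K14J26 and 2479 and 1845 without K14J28.

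**Figure D1:**
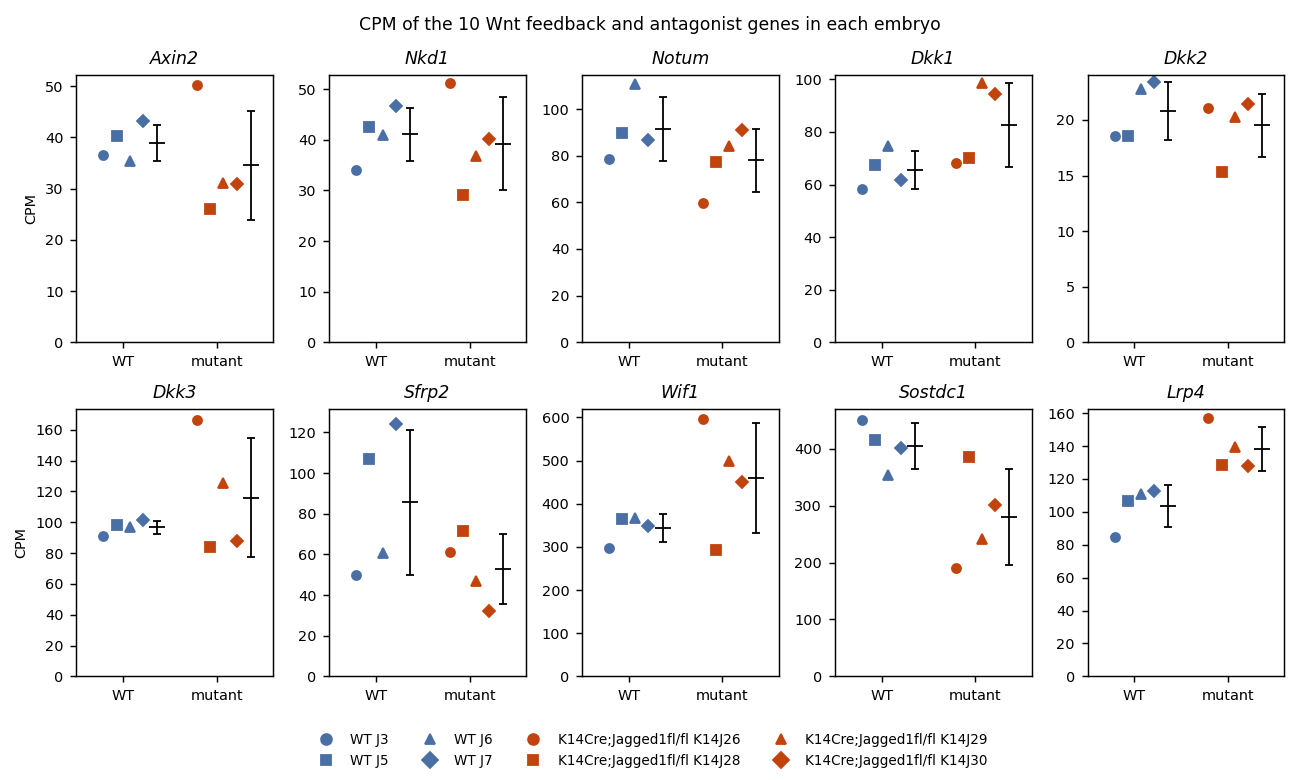
CPM of each gene in each embryo, with WT (Jagged1fl/fl) in blue and K14Cre;Jagged1fl/fl (mutant) in red, a marker shape per embryo, and black bars for the mean ± SD (n = 4). Lrp4 is the gene whose 4 mutant values, 128 to 157 CPM, all lie above the WT values, 84.7 to 112 CPM, while the groups of the other 9 genes overlap.

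Axin2 (ENSMUSG00000000142, chromosome 11, 108920349 to 108950783, GRCm38) encodes a scaffold of the β-catenin destruction complex and is the most used readout of canonical Wnt activity. It measured 36.6, 40.3, 35.3 and 43.1 CPM in WT J3, J5, J6 and J7. Among the mutants it measured, in the order K14J26, K14J28, K14J29 and K14J30, 50.2, 26.1, 31.1 and 30.9 CPM. Thus 3 mutants lay below every WT embryo and K14J26 lay above every one. With all embryos the log2 fold change was -0.17 (adjusted p = 0.531 by edgeR's quasi-likelihood test, standard error 0.18). Without K14J26 it was -0.41 with an adjusted p of 0.0204, the only setting in which Axin2 was called, and without K14J28 it was -0.066 with an adjusted p of 0.801. With the enamel score as a covariate the log2 fold change was -0.70 (adjusted p = 0.0973 by edgeR), and with Xist as a covariate it turned to 0.094. An antisense gene, Gm11670, shares 209 exon bases with Axin2 but held no more than 8 counts in any embryo.

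Nkd1 (ENSMUSG00000031661, chromosome 8, 88521354 to 88594884) encodes a cytoplasmic protein that binds Dishevelled. Its levels were 34.0, 42.6, 41.0 and 46.7 CPM in WT J3, J5, J6 and J7, and 51.1, 28.998, 36.7 and 40.1 CPM in mutants K14J26, K14J28, K14J29 and K14J30. As with Axin2, K14J26 was the highest and K14J28 the lowest of all 8 embryos, but the other mutants lay within the WT range. Between the groups the log2 fold change was -0.07 (adjusted p = 0.794 by edgeR's quasi-likelihood test, standard error 0.16), and its sign changed to 0.046 without K14J28. With other single embryos left out it ran from -0.22 without K14J26 to -0.0078 without J7. With Xist as a covariate it turned to 0.18, and with the enamel score it was -0.51. Over the 8 embryos the root mean square difference between the log2 profiles of Axin2 and Nkd1, each set to its WT mean, was 0.15, the smallest among the pairs of the 10 genes.

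Notum (ENSMUSG00000042988, chromosome 11, 120653788 to 120661175) encodes a secreted enzyme that removes the lipid from Wnt proteins. It stood at 78.5, 89.6, 111 and 86.9 CPM in WT J3, J5, J6 and J7, and at 59.6, 77.3, 84.0 and 91.2 CPM in mutants K14J26, K14J28, K14J29 and K14J30. K14J26, the highest embryo for Axin2 and Nkd1, was the lowest for Notum, and K14J28 also fell below the WT range. The log2 fold change was -0.23, with a standard error of 0.14 and an adjusted p of 0.279 by edgeR's quasi-likelihood test, and it kept its sign under every alternative run. Its size fell to -0.12 without K14J26, to -0.13 without J6 and to -0.076 with the muscle score as a covariate. Notum shares 708 exon bases with the antisense gene Notumos, at 49 to 84 counts per embryo against 1241 to 2575 for Notum. The library kit does not mark strand, so reads from such a pair cannot be told apart.

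Dkk1 and Dkk2 encode secreted ligands of Lrp5 and Lrp6 that take these co-receptors away from Wnt. Dkk1 (ENSMUSG00000024868, chromosome 19, 30545863 to 30549665) measured 58.2, 67.3, 74.6 and 61.7 CPM in WT J3, J5, J6 and J7, against 68.1, 70.0, 98.4 and 94.4 CPM in mutants K14J26, K14J28, K14J29 and K14J30. K14J29 and K14J30 were above every WT embryo, and the other mutants fell between the WT values. The log2 fold change was 0.34 (standard error 0.14, unadjusted p = 0.0346, adjusted p = 0.115 by edgeR's quasi-likelihood test), and without K14J26 it was 0.42 with an adjusted p of 0.0439. Dkk1 kept its sign under every alternative run.

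Dkk2 (ENSMUSG00000028031, chromosome 3, 132085292 to 132180304) measured 18.54, 18.6, 22.8 and 23.4 CPM in WT J3, J5, J6 and J7 and 21.04, 15.4, 20.3 and 21.4 CPM in mutants K14J26, K14J28, K14J29 and K14J30. Only K14J28 lay outside the WT range. The log2 fold change of Dkk2 was -0.10 (adjusted p = 0.632 by edgeR's quasi-likelihood test, standard error 0.13). With single embryos left out it ran from -0.16 without J5 to -0.00033 without K14J28. Its sign turned with the muscle score (0.041) or Xist (0.044) as a covariate, and with the enamel score it was -0.31.

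Dkk3 (ENSMUSG00000030772, chromosome 7, 112116017 to 112159057) encodes a divergent member of the Dickkopf family that, unlike Dkk1, is not generally held to act through Lrp5 and Lrp6. It was the steadiest gene in WT molars, at 91.0, 97.9, 96.7 and 101 CPM in J3, J5, J6 and J7. In mutants K14J26, K14J28, K14J29 and K14J30 it measured 167, 84.0, 125 and 87.6 CPM, so that 2 mutants lay above and 2 below every WT embryo. The SD of log2(CPM + 0.1) was 0.06 in WT and 0.47 in mutant molars. With this spread the log2 fold change was 0.26, with a standard error of 0.20 and an adjusted p of 0.371 by edgeR's quasi-likelihood test. Without K14J26 it was 0.035 (adjusted p = 0.871 by edgeR). With the enamel score as a covariate its sign turned, to -0.43.

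Sfrp2 (ENSMUSG00000027996, chromosome 3, 83766321 to 83774316) encodes a secreted protein with a Frizzled-like domain that binds Wnt, and it is expressed in mesenchyme of many organs. It had the largest spread in WT, at 49.9, 107, 60.9 and 124 CPM in J3, J5, J6 and J7, with 61.3, 71.3, 46.7 and 32.2 CPM in mutants K14J26, K14J28, K14J29 and K14J30. J5 and J7 lay above every mutant, while J3 and J6 lay among the mutants. Its log2 fold change of -0.70 was the largest in size of the 10 genes in the main fit. The standard error was 0.32 and the adjusted p 0.157 by edgeR's quasi-likelihood test. With single embryos left out it ran from -0.88 without J3 to -0.47 without J7. Sostdc1 was larger in size without J7 (-0.54) and without K14J30 (-0.57), and Axin2 with the enamel score as a covariate (-0.70). The SD of log2(CPM + 0.1) was 0.63 in WT and 0.50 in mutant molars. With the muscle score as a covariate the log2 fold change was -0.66. The antisense gene Gm26771 shares 347 exon bases with Sfrp2 and held 11 to 55 counts, against 831 to 3683 for Sfrp2.

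Wif1 (ENSMUSG00000020218, chromosome 10, 121033960 to 121100650) encodes a secreted protein that binds Wnt proteins directly. In WT J3, J5, J6 and J7 it stood at 298, 365, 366 and 348 CPM, and in mutants K14J26, K14J28, K14J29 and K14J30 at 596, 293, 499 and 451 CPM. The mutants K14J26, K14J29 and K14J30 were above every WT embryo, and K14J28 was below every one. The estimate for Wif1 was 0.42 on the log2 scale (standard error 0.18, unadjusted p = 0.049, adjusted p = 0.142 by edgeR's quasi-likelihood test). Leaving out K14J28 gave 0.58 with an adjusted p of 0.00864, and leaving out K14J26 gave 0.27 with an adjusted p of 0.258. With the enamel score as a covariate the sign turned, to -0.22.

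Sostdc1 (ENSMUSG00000036169, chromosome 12, 36314139 to 36318452) encodes a secreted antagonist of both Wnt and BMP signals, which is known from the tissue around the enamel knots. It measured 450, 415, 353 and 402 CPM in WT J3, J5, J6 and J7. In mutants K14J26, K14J28, K14J29 and K14J30 it measured 191, 385, 242 and 302 CPM. The same embryos K14J26, K14J29 and K14J30 that were above the WT range for Wif1 were below it for Sostdc1, and K14J28 lay inside the WT range. The log2 fold change was -0.53 (standard error 0.19, unadjusted p = 0.0194), and the adjusted p of 0.0815 missed the threshold in edgeR's quasi-likelihood test. It passed with DESeq2 (adjusted p = 0.0336), with the likelihood ratio test of edgeR (adjusted p = 0.0458) and, at -0.73, without K14J28 (adjusted p = 0.0119). With the enamel score as a covariate the log2 fold change was 0.081 (adjusted p = 0.714 by edgeR).

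Lrp4 (ENSMUSG00000027253, chromosome 2, 91457511 to 91513779) encodes a large receptor of the LDL receptor family that binds Sostdc1 and dampens Wnt signaling, and that is also the agrin receptor of the neuromuscular junction. It measured 84.7, 107, 111 and 112 CPM in WT J3, J5, J6 and J7, and 157, 129, 140 and 128 CPM in mutants K14J26, K14J28, K14J29 and K14J30. All 4 mutants were above all 4 WT embryos. The log2 fold change was 0.41, a ratio of 1.33 (standard error 0.10 on the log2 scale, adjusted p = 0.0308 by edgeR's quasi-likelihood test). It stayed between 0.33 and 0.45 with any embryo left out, while the adjusted p ran from 0.0215 to 0.0833 and was under 0.05 in 3 of these 8 fits, those without K14J26, K14J28 or K14J30. By library size alone the adjusted p was 0.0567, and with the muscle score as a covariate, which raised the log2 fold change to 0.49, it was 0.0786. The enamel score as a covariate lowered the log2 fold change to 0.18 (adjusted p = 0.44 by edgeR). Sostdc1, the ligand, and Lrp4, its receptor, thus had values in opposite directions in the main fit. There the change of Lrp4 was past the threshold and that of Sostdc1 was not, and the calls of both depended on the fit.

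**Figure D2:**
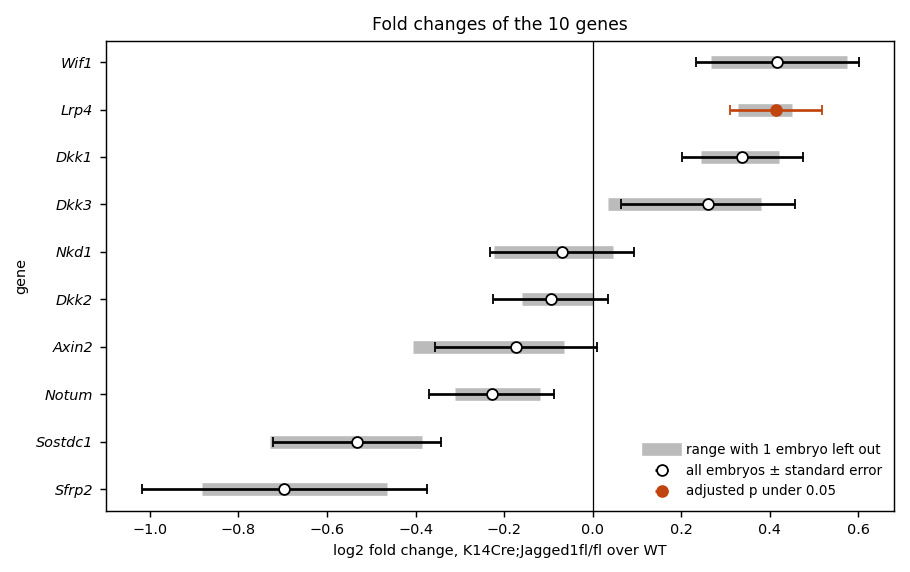
Log2 fold change of each gene, K14Cre;Jagged1fl/fl over WT, from edgeR's quasi-likelihood fit, with its standard error (n = 4 and 4), and grey bars for the range with any single embryo left out. Lrp4, in red, has an adjusted p under 0.05, and the grey bar of Nkd1, from -0.22 to 0.046, is the one that crosses 0.

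The mutant embryos differed among themselves more than the WT embryos did. The SD of log2(CPM + 0.1) was larger in mutants for 8 of the 10 genes, the exceptions being Sfrp2 and Lrp4, and also for 73.7% of all tested genes. In mutants the highest embryo had 1.98 times the Dkk3, 2.03 times the Wif1 and 2.02 times the Sostdc1 of the lowest, whereas in WT these ratios were 1.11, 1.23 and 1.27. Ordered by enamel score, the mutants run K14J28, K14J30, K14J29, K14J26. The CPM of Axin2, Dkk3 and Wif1 followed exactly this order and that of Sostdc1 its reverse, which is 40% of the 10 genes against 26.1% of all tested genes. With 4 embryos, 1 such order is a description of these embryos. In the same order the summed proliferation markers (Mki67, Top2a, Ccnb1 and Pcna) stood at 1212, 953, 740 and 388 CPM, against 940 to 1136 CPM in WT. The summed odontoblast markers stood at 7639, 13445, 16996 and 23874 CPM, against 4361 to 8258 CPM in WT. Of this sum Col1a1 made up 5460, 10173, 11541 and 16666 CPM. The odontoblast markers Dmp1, at 190, 372, 392 and 254 CPM, and Mepe did not rise in this order. The signs of Dkk3, Wif1 and Sostdc1 turned when the enamel score entered the fit. K14J28, the mutant with the lowest enamel score, is also the library with oral keratins. It held the highest Csf1r, a macrophage marker, at 92.7 CPM against 26.6 to 44.9 CPM elsewhere. The macrophage markers Ptprc and Cd68 were also highest in K14J28. Adgre1 lay within the range of the other embryos, and C1qa, at 7.95 CPM, lay below every WT embryo. The part of these markers or of tissue makeup in these values was not tested, and as the enamel score of all 4 mutants lay above that of the WT embryos, it and the genotype cannot be told apart.

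**Figure D3:**
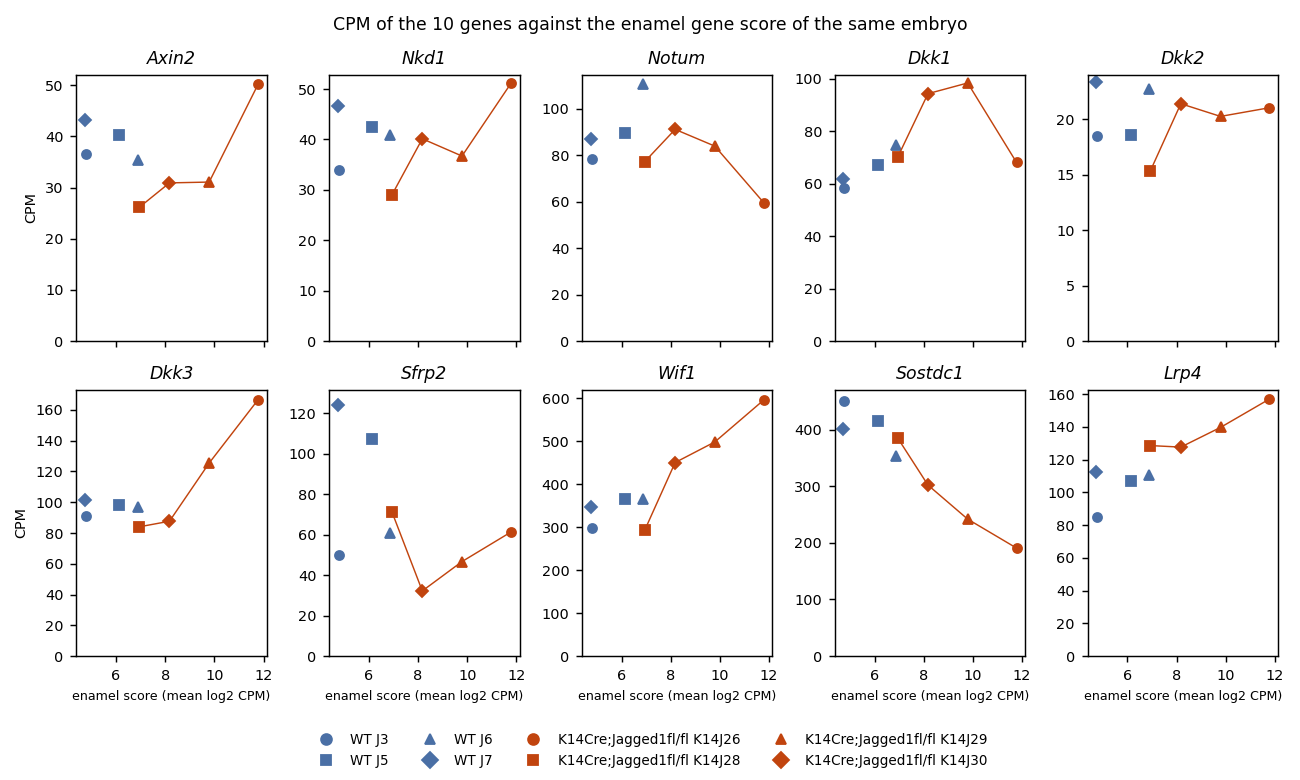
CPM of each gene against the enamel score of the same embryo, the mean log2(CPM) of 5 enamel genes, with WT in blue and K14Cre;Jagged1fl/fl in red, joined by a line in order of the score. Axin2, Dkk3 and Wif1 go up at each step among the mutants and Sostdc1 goes down at each step, from 385 to 191 CPM.

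Levels of different genes can be set side by side only per length of exon. In WT molars Sostdc1 was the most abundant at 227 ± 22.5 CPM per kb (SD, n = 4), followed by Wif1 at 142 ± 13.2, without overlap between them. Then came Sfrp2 at 39.7 ± 16.6 and Notum at 38.0 ± 5.69 CPM per kb, which overlapped, and Dkk3 at 28.8 ± 1.26 and Dkk1 at 27.0 ± 2.95, which overlapped as well. Lrp4, Nkd1 and Axin2 followed at 9.87, 9.01 and 7.05 CPM per kb, each overlapping with its neighbor, and Dkk2 was the lowest at 5.62 CPM per kb. In mutant molars the first places were exchanged, with Wif1 at 189 ± 52.1 and Sostdc1 at 157 ± 47.0 CPM per kb, and these ranges overlapped. The Dkk3, Dkk1, Notum and Sfrp2 ranges overlapped from each to the next in mutants, at means from 34.5 to 24.6 CPM per kb, and Lrp4 at 13.2 ± 1.30 no longer overlapped with Nkd1 at 8.61 ± 2.02. The exchange of order between Sostdc1 and Wif1 was not tested in itself.

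Among all tested genes of at least 1 CPM, the profiles most like each of the 10 genes were found by the root mean square difference over the 8 embryos. They were Prag1 and Ccdc74a for Axin2, Cacna1c and Gm3650 for Nkd1, C1qc and Mxra8 for Notum, Entpd7 and the osteoblast factor gene Sp7 for Dkk1, and Pmp22 and Tap2 for Dkk2. For Dkk3 they were Fbln5 and Prkce, for Wif1 Snrpn and Rabac1, for Sostdc1 Rfc3 and Zfp57, and for Lrp4 Camsap2 and the gene ENSMUSG00000103565. The differences lay between 0.06 and 0.09 on the log2 scale for these 9 genes. Sfrp2 had no such close companion, its nearest being 4933415A04Rik and Spock3 at 0.31 and 0.32.

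Other genes of the pathway, other partners of Sostdc1 and Lrp4, and enamel knot genes were read from 6 lists. The lists hold 84 genes, of which 81 were tested. Of these, 7 were called higher and 22 lower, beside the 9.52% called higher and 6.61% called lower of all tested genes. With the enamel score as a covariate, 1 was called higher and 1 lower. The counts were 0 and 3 with the muscle score and 8 and 12 with Xist. Over all tested genes, these fits called 186 higher and 112 lower, 44 and 43, and 1515 and 801. In the same libraries 4 of 7 dental mesenchyme markers were called lower and 1 higher, and 1 of 6 dental epithelium markers higher, and their part in these values was not tested. Among 15 other Wnt antagonists, 14 were tested, 7 were called lower and 1 higher, and the median log2 fold change was -0.51 against 0.01 for all tested genes. The secreted Wnt binder Frzb measured 48.5 to 70.9 CPM in WT and 25.8 to 34.6 CPM in mutants (log2 fold change -0.87, adjusted p = 0.00975 by edgeR's quasi-likelihood test). Its relative Sfrp1 measured 94.8 to 132 CPM in WT and 75.9 to 87.0 CPM in mutants (-0.44, adjusted p = 0.0238 by edgeR). Igfbp4 (-0.56) and Kremen2 (-1.18), which encodes a Dickkopf receptor, were lower as well, and so were Shisa3, Sfrp5 and Shisa2. Sost, the close relative of Sostdc1, was called higher (adjusted p = 0.0463 by edgeR) on 0 to 9 counts in WT and 8 to 63 in mutants. Dkk4, a Dickkopf gene of the enamel knot, had 11, 10, 1 and 13 counts in WT and 0, 6, 0 and 0 in mutants and was not called (adjusted p = 0.0902). Sfrp1 and Frzb were thus called lower, while their family member Sfrp2 was not called with a fold change between theirs, and Dkk1 had the opposite sign.

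In the list of 17 other feedback and target genes, 16 were tested, 6 were called lower and 1 higher, with a median log2 fold change of -0.31. The TCF/LEF factor genes Lef1 and Tcf7 were lower. Lef1 went from 27.4 to 46.1 CPM in WT to 18.0 to 22.2 CPM in mutants (log2 fold change -0.95, adjusted p = 0.0104 by edgeR's quasi-likelihood test), and Tcf7 had a log2 fold change of -0.75. Nkd2, the relative of Nkd1, was lower at -0.36, with 34.2 to 44.6 CPM in WT and 30.3 to 31.2 CPM in mutants (adjusted p = 0.0295 by edgeR). Sp5, at 0.36 to 0.83 CPM in WT and 0.12 to 0.27 CPM in mutants, Tnfrsf19 (-0.36) and Twist1 were called lower too. Ccn4, a secreted matrix protein gene induced by Wnt1, was called higher (log2 fold change 1.42), from 94.3 to 150 CPM in WT to 190 to 435 CPM in mutants. Lgr5, the R-spondin receptor gene, was not called (-0.22, adjusted p = 0.715 by edgeR). The feedback genes Axin2, Nkd1 and Notum therefore had negative values without a call in the same libraries in which Lef1, Tcf7, Sp5 and Nkd2 were called lower.

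Of the 19 receptors and agonists, 6 were called lower and 1 higher. The R-spondin gene Rspo2 had the largest value, at -1.79 (28.8 to 55.1 CPM in WT and 9.35 to 15.8 CPM in mutants), and Ror2 (-0.78), Fzd1 (-0.65), Ror1 (-0.32), Fzd10 (-0.41) and Fzd2 were lower. Fzd6 was higher. The co-receptors on which Dkk1 and Dkk2 act, Lrp5 (0.14, adjusted p = 0.279) and Lrp6 (0.09, adjusted p = 0.495 by edgeR), were not called. Among 14 genes of the destruction complex and Dishevelled, Apc was called, higher at 0.49, and the list's median was 0.03. Of the 12 other partners of Sostdc1 and Lrp4, 11 were tested. Bmp2, a ligand that Sostdc1 can bind, was higher at 0.77, and the BMP and activin antagonist genes Nog (-0.53) and Fst (-0.87) were lower. In the enamel knot list, 13 of 14 genes were tested, Fgf9 (-1.66) and Lef1 were lower, and Cdkn1a (1.36), Wnt10a (0.97) and Bmp2 were higher. Dkk4, also on this list, held no more than 13 counts in any embryo. Among the mutants Cdkn1a and Wnt10a rose and Fgf9 fell in the order of the enamel score, while Lef1 and Bmp2 did neither. Of all tested genes 26.1% followed that order or its reverse. Whole molars do not show in which cells these genes changed. With single embryos left out, the calls over the 6 lists ran from 0 to 8 higher and from 6 to 28 lower. They fell to 0 higher and 6 lower without J7 or without K14J29, to 1 and 9 without J3, and to 1 and 12 without J5, and without J6 there were 3 higher. Calls over all tested genes fell in these same fits, as given above.

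**Figure D4:**
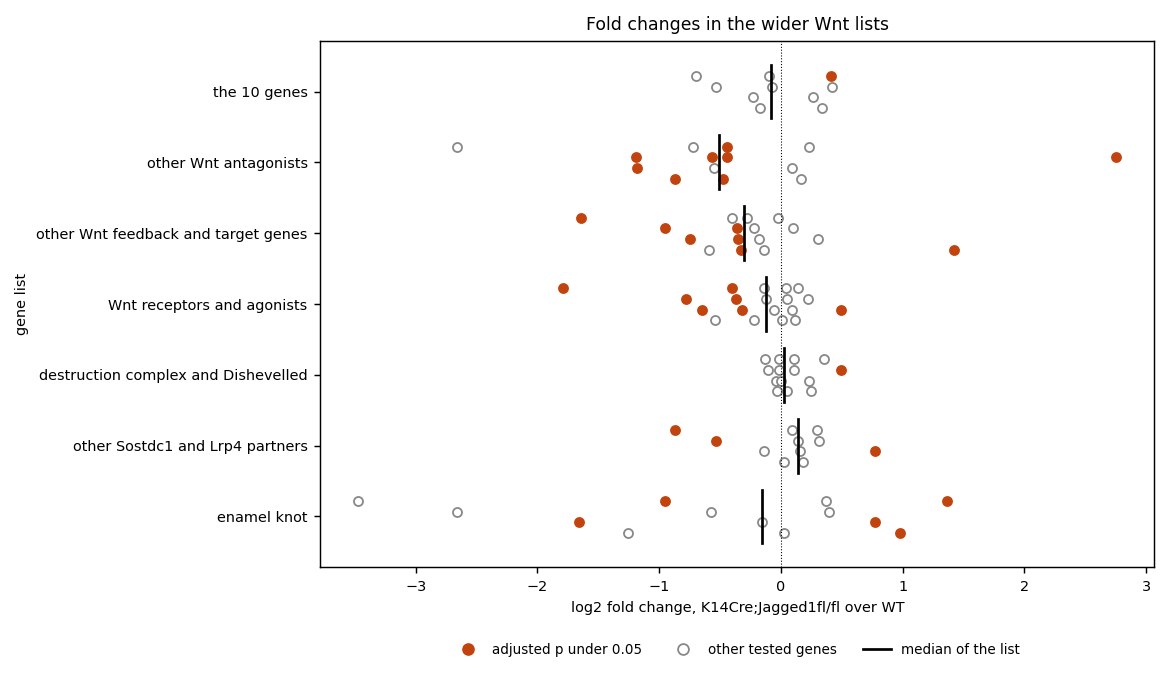
Log2 fold change of every tested gene, K14Cre;Jagged1fl/fl over WT, by list, with genes at an adjusted p under 0.05 filled in red and a black bar for the median of the list. The other Wnt antagonists have the lowest median, -0.51, while the 10 genes sit on both sides of 0 with 1 filled point, Lrp4; genes in several lists are drawn in each.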

How the data were processed

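Lower molars of 8 embryos were profiled by poly-A RNA-seq. The authors trimmed the reads by 5 bases at the 3′ end, kept those of at least 20 bases, used STAR for alignment to GRCm38, and deposited for each embryo the counts of whole reads on each gene, without normalization. The paper names GenomicRanges for counting and the submitters' processing notes name featureCounts and GRCm38.p3. The treatment of strand and of reads with several matches is not given in the sources used here.

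From these counts, 17129 of 43629 genes were kept, those that reached 10 counts in 2 or more embryos of a group. They were compared in edgeR 4.0.16 (R 4.3.3) by its quasi-likelihood test, after TMM scaling and without covariates, with Benjamini-Hochberg adjustment over all genes kept. GENCODE M21 on GRCm38 holds 42548 of the 43629 identifiers and all listed genes. The replicates are separate embryos. The test was run on simulated counts with the same spread in both groups and with changes larger than those of the 10 genes. That run therefore does not show how the test behaves with the larger spread of the mutants or with changes as small as these.

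The 10 genes, the lists, the rules and the tests were chosen with earlier results of these data known. Named are the 10 genes, Jag1, list genes called at an adjusted p under 0.05 (with values for at most 5 of a list) and 8 relatives whether called or not, the 2 profiles most like each of the 10 genes, and the highest and lowest enamel gene. Csf1r, Ptprc, Cd68, Adgre1, C1qa, Col1a1, Dmp1, Mepe, Epcam, Krt4, Krt13, Krt5, Krt14, Msx1 and Barx1 were named from the marker lists after their values were seen. Alternatives were other scalings (RLE, upper quartile, library size), DESeq2 1.42.0, the likelihood ratio test, other filters, covariates for enamel, muscle and Xist, leaving out the 20 most abundant genes, leaving out each embryo, an adjusted p under 0.1, and a pseudocount of 1 in place of 0.1. Promoter sequences were matched by symbol for 6 of the 10 genes, and Notum, Dkk3, Sostdc1 and Lrp4 had no entry in the set of windows used.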

Additional observations from a re-analysis of the deposited data

How the results depend on the processing

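The fold changes of Notum, Dkk1, Sfrp2 and Lrp4 kept their sign in all 19 alternative fits, and so did Jag1, which stayed called, between -1.34 and -1.09 with an embryo left out. Signs turned, without a call, for Axin2 (0.094), Nkd1 (0.18) and Dkk2 (0.044) with Xist as a covariate, for Dkk2 with the muscle score (0.041), for Nkd1 without K14J28 (0.046), and for Dkk3 (-0.43), Wif1 (-0.22) and Sostdc1 (0.081) with the enamel score. The cause was not tested.

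The count of the 10 genes called higher was 1, and 0 by library size alone and with the enamel or the muscle score as a covariate. The count called lower was 0, and 1 with DESeq2, with the likelihood ratio test and at an adjusted p under 0.1, Sostdc1 each time. Calls over all genes moved in these fits too. They were 2233 higher and 1618 lower of 18182 genes with DESeq2, 1922 and 1292 with the likelihood ratio test, and 864 and 1065 by library size alone. The total at an adjusted p under 0.1 is not given here. By the criteria of the study, read on the log2 scale, 1 of the 10 genes passed, and 2 with upper-quartile scaling, library size alone, no count filter, the likelihood ratio test or DESeq2 (Sfrp2 with Sostdc1), with Xist as a covariate (Wif1 with Sostdc1) and with the enamel score (Axin2 and Nkd1). Of the wider lists, 7 genes were called higher and 22 lower, against 1 and 1 with the enamel score, 0 and 3 with the muscle score, and 8 higher and 12 lower with Xist as a covariate. Calls over all genes went from 1631 higher and 1133 lower to 186 and 112 with the enamel score, 44 and 43 with the muscle score, and 1515 and 801 with Xist. With each embryo left out in turn, the counts ran from 0 to 2 called higher, from 0 to 1 called lower, from 0 to 3 past the criteria of the study and from 1 to 3 without overlap, and from 0 to 8 higher and 6 to 28 lower in the wider lists. Over all tested genes these fits gave from 250 to 2479 higher and from 170 to 1845 lower. Without J6, Dkk1, Sostdc1 and Lrp4 did not overlap, without K14J28 Wif1, Sostdc1 and Lrp4, and without K14J26 Axin2 and Lrp4. The share of all tested genes without overlap, 24.2%, and past the criteria of the study, 14.2%, is given here only for the main fit with all 8 embryos. These counts in the other fits thus have no share beside them, and groups with fewer embryos come apart more easily.

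No paired analysis was possible because the sources do not give the litter of single embryos. Depth limited only the lowest genes, with 3 counts at no more than 0.166 CPM.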
